A study of Mus musculus with 22 samples.

Results

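Amino acid transporters of the renal proximal tubule were followed in mouse kidney by 9 genes, Slc6a18, Slc6a19, Slc6a20b, Slc7a7, Slc7a8, Slc7a9, Slc3a1, Slc3a2 and Slc1a1, which were taken by gene symbol from the 32858 genes of the count table. RNA-Seq was performed on whole kidneys of 22 mice, each giving 1 library. All mice were male C57Bl6/J aged 8 to 10 weeks. Vehicle was given to 5 mice and KW6002 (istradefylline, an antagonist of the adenosine receptor ADORA2A) to 6 mice, at 3 mg/kg per day from day -5 to day 7. Cisplatin, a platinum drug that injures tubules, was given to 5 mice as 6 daily injections of 3 mg/kg from day 0, and a further 6 mice received cisplatin and KW6002 by these same schedules. Cisplatin-treated kidneys were taken 72 hours after the last injection.

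Nearly all filtered amino acids are taken back by the proximal tubule. Carriers in the brush border, the apical membrane that faces the urine, draw amino acids in, and exchangers in the basolateral membrane pass them on to the blood. Of the apical carriers, Slc6a19 encodes B0AT1, the main sodium-coupled carrier of neutral amino acids, whose loss in humans causes Hartnup disorder. Slc6a18 encodes B0AT3, a related neutral carrier, and Slc6a20b is part of the Slc6a20 pair of imino acid carrier genes of the mouse. Slc7a9 (b0,+AT) and Slc3a1 (rBAT) are the light and the heavy chain of the apical exchanger of cystine and dibasic amino acids, and loss of either causes cystinuria. Slc1a1 (EAAC1) carries glutamate and aspartate. On the basolateral side, Slc7a7 (y+LAT1, lost in lysinuric protein intolerance) and Slc7a8 (LAT2) are light chains that both pair with the heavy chain Slc3a2 (4F2hc, CD98).

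Positions are given on mm10 with the GENCODE M21 gene models. Slc6a18 (ENSMUSG00000021612, chr13:73661752-73678023) and Slc6a19 (ENSMUSG00000021565, chr13:73679745-73704865) are neighbours on the minus strand, 1721 bases apart. Slc7a7 (ENSMUSG00000000958, chr14:54369442-54417780) and Slc7a8 (ENSMUSG00000022180, chr14:54722209-54781946) lie on the same strand of chromosome 14, 304428 bases apart. Slc6a20b (ENSMUSG00000025243) is at chr9:123590800-123632565 on the minus strand, 2204 bases from Slc6a20a. Slc7a9 (ENSMUSG00000030492) is at chr7:35448796-35466036 and Slc3a1 (ENSMUSG00000024131) at chr17:85028376-85064236, both on the plus strand. Slc3a2 (ENSMUSG00000010095, chr19:8706882-8723369, minus strand) and Slc1a1 (ENSMUSG00000024935, chr19:28835049-28913960, plus strand) share chromosome 19. All 9 are protein-coding genes.

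Promoter windows from RefSeq (GRCm38.p6), reaching from 250 bases before a start site to 50 bases after it, were found for 8 of the 9 genes, 13 windows in all. The windows were searched on both strands for GTTAAT (only a part of the site of HNF1), CAAAGTCCA (a site of HNF4) and TTGCATCA (the amino acid response element of ATF4), the first pair being factors of proximal tubule identity and the last a factor of amino acid shortage. The 250 bases before the start are shown for the apical heavy chain Slc3a1 (chr17:85028097-85028346, plus strand), the gene with the only CAAAGTCCA match, and for the most distal start of Slc7a7 (chr14:54417945-54418194, minus strand), the gene that changed most. Capitals mark the CAAAGTCCA match, which begins 39 bases before the Slc3a1 start.
Slc3a1: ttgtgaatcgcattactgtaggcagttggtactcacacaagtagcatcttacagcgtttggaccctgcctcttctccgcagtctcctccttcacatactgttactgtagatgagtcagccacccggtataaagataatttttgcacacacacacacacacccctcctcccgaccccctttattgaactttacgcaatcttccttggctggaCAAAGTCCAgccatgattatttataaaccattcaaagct
Slc7a7: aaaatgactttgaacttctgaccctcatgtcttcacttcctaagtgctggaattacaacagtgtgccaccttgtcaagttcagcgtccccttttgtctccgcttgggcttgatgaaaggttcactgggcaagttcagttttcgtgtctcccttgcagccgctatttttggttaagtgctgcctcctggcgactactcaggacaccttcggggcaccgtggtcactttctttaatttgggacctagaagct
A TTGCATCA match on the opposite strand began 1 base before this Slc7a7 start and so ran past the stretch shown; it also fell in a second, overlapping Slc7a7 window. GTTAAT was found in 1 window each of Slc3a1 and Slc7a7, outside the stretches shown. In Slc3a1 the match began after the start site. In Slc7a7 it began 86 bases before another start, in the window chr14:54409423-54409722. The other 6 genes with a window held none of these letters. Of all 32851 RefSeq windows of the same length, 7.10% held GTTAAT, 0.475% held CAAAGTCCA and 0.895% held TTGCATCA.

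Libraries held 26471762 to 40510754 counts (median 32721214.5), and the 9 genes took 0.362 to 0.388% of the counts in vehicle kidneys and 0.266 to 0.349% in cisplatin kidneys. With 17131 genes passing the filter on low counts, all 9 transporters were tested. The lowest count of a transporter in any library was 830, for Slc7a7 in a cisplatin kidney. The mice are numbered in the 300s or the 500s in the labels, and all 11 cisplatin-treated mice are from the 500s, against 2 of 5 vehicle and 3 of 6 KW6002 mice. Values within the 500s are therefore given where they changed a call of a transporter or moved a log2 difference given for it by over 1.5 times, and for some other results. Injury was evident in every cisplatin kidney. Havcr1 (kidney injury molecule 1) was at 504 to 745 CPM (counts per 1000000 counts of the scaled library) with cisplatin against 1.63 to 2.98 with vehicle, and Lcn2 (NGAL) at 539 to 1481 CPM against 3.24 to 4.90.

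Cisplatin lowered 7 of the 9 transporter mRNAs, raised Slc6a18, and left Slc3a2 short of the threshold (edgeR quasi-likelihood test, adjusted p below 0.05 over all genes tested). In the same comparison 35.9% of all genes tested were lower and 34.6% higher. By the stricter rule of an adjusted p below 0.01 and a log2 change beyond 1, 5 of the 9 were lower (Slc7a7, Slc6a20b, Slc7a9, Slc6a19 and Slc3a1) and none was higher, against 12.1% of all genes that were lower by this rule. The median log2 change was -1.12 over the 9 genes and -0.01 over all genes tested. Within the mice numbered in the 500s the same 8 genes passed the threshold, with log2 changes from -2.96 (Slc7a7) to 0.63 (Slc6a18). Whole kidney was sampled, so a change in the share of proximal tubule cells and a change in RNA per cell cannot be told apart in any of these values.

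**Figure D1:**
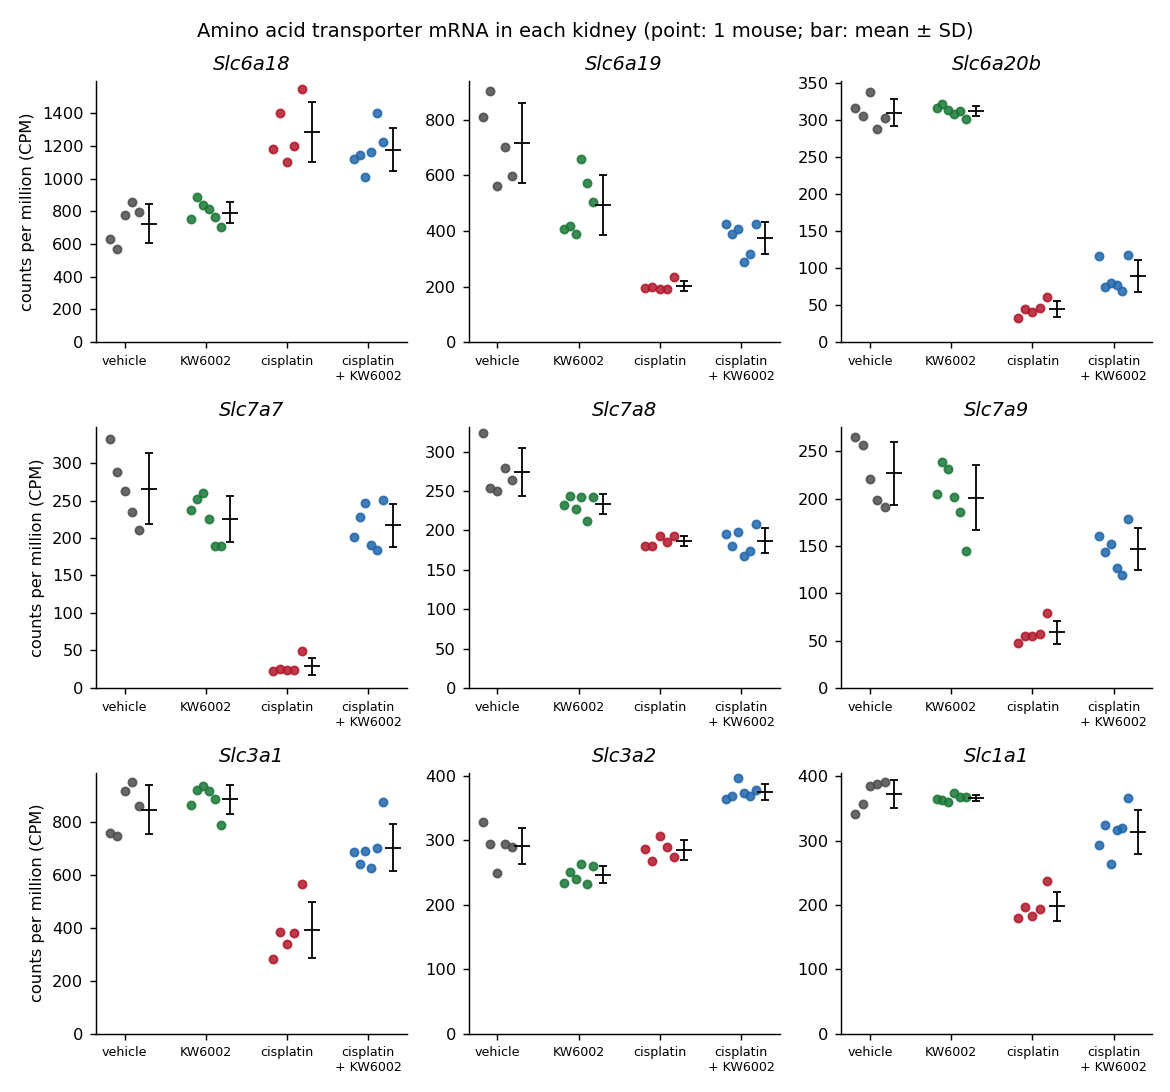
CPM (linear axis from 0) of the 9 transporter mRNAs in each of the 22 kidneys by group, with each point 1 mouse and the bar beside it the mean and SD. Slc7a7 fell to 22.1 to 48.7 CPM with cisplatin and stood at 183 to 251 with cisplatin plus KW6002, while Slc6a18 was above all vehicle kidneys in every cisplatin-treated kidney.

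The 3 apical carriers of the SLC6 family did not move together. Slc6a19 (B0AT1) was at 811, 903, 560, 703 and 598 CPM in the 5 vehicle kidneys and at 195, 199, 192, 193 and 233 CPM in the 5 cisplatin kidneys. The groups were clear of each other, and cisplatin lowered the mean to 28.3% of vehicle (log2 change -1.82, SE 0.15, edgeR adjusted p = 3.07e-10). With cisplatin plus KW6002 its values ran from 288 through a median of 398 to 426 CPM, above every cisplatin kidney and below every vehicle kidney. The log2 difference was 0.89 from cisplatin alone (SE 0.14, edgeR adjusted p = 1.62e-05) and -0.93 from vehicle (adjusted p = 6.15e-06).

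Slc6a18 (B0AT3), the gene next to Slc6a19, changed in the opposite direction. Its CPM was 628, 568.2, 778, 856 and 798 in the vehicle kidneys and 1180, 1402, 1099, 1200 and 1548 in the cisplatin kidneys. No cisplatin kidney reached down to the vehicle range (log2 change 0.83, SE 0.11, edgeR adjusted p = 6.60e-07), and within the mice numbered in the 500s the log2 change was 0.63 (adjusted p = 0.00046). With cisplatin plus KW6002 it was at 1007 to 1403 CPM (median 1154), within the cisplatin range and, in the lowest kidney, below it. Its log2 difference from cisplatin alone was -0.13 with a 95% interval of -0.33 to 0.08, and from vehicle it was 0.70 (adjusted p = 7.26e-06).

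The count ratio of Slc6a18 to Slc6a19, formed after the values were seen and given as a description, was 0.629 to 1.39 in vehicle kidneys (median 1.22) and 1.23 to 2.15 in KW6002 kidneys (median 1.62). It was 5.73 to 7.04 in cisplatin kidneys (median 6.23) and 2.47 to 4.43 with both drugs (median 2.92). The vehicle and KW6002 ratios mix the label series, and these groups differed mainly in the 300s. Mean Slc6a19 was 758 CPM (300s) and 651 CPM (500s) with vehicle, and 404 and 579 CPM with KW6002. Mean Slc6a18 was 658 and 827 CPM with vehicle, and 825 and 760 CPM with KW6002. A ratio taken within a library does not depend on the scaling between libraries.

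Slc6a20b had the second-deepest loss among the 9. It was at 316, 305, 336.9, 287 and 302 CPM with vehicle and at 32.5, 44.3, 40.8, 45.4 and 60.6 CPM with cisplatin (log2 change -2.79, SE 0.15, edgeR adjusted p = 1.44e-13). With both drugs it was at 68.7 to 118 CPM (median 78.7), above every cisplatin kidney (log2 difference 1.00, SE 0.14, adjusted p = 2.11e-06) but only 28.8% of the vehicle mean (log2 difference -1.80, adjusted p = 1.80e-10). Slc6a20a, the neighbouring gene of the pair, had a mean of 24.8 ± 3.92 CPM with vehicle and 23.2 ± 1.22 CPM with cisplatin (SD, n = 5 each), a log2 difference of -0.10 (edgeR adjusted p = 0.49). Where stretches of the paired genes are alike, reads may be split between them or lost, since only uniquely aligned reads were counted. How alike the genes are was not tested. Slc6a20b also shares 1800 exon bases with Sacm1l on the opposite strand, and whether counting used the strand is not stated.

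Both chains of the apical cystine exchanger fell, the light chain further than the heavy chain. Slc7a9 (b0,+AT) was at 265, 257, 221, 199 and 191 CPM with vehicle and at 47.1, 55.3, 54.8, 56.8 and 79.2 CPM with cisplatin (log2 change -1.95, SE 0.15, edgeR adjusted p = 4.73e-11). Slc3a1 (rBAT) was at 756, 747, 915, 951 and 858 CPM with vehicle and at 282, 385, 340, 379 and 563 CPM with cisplatin (log2 change -1.12, SE 0.13, adjusted p = 6.78e-08). For both genes every cisplatin kidney lay below every vehicle kidney. The highest cisplatin value of each came from replicate 5, and without that library the log2 changes were -2.08 and -1.29.

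With cisplatin plus KW6002, Slc7a9 was at 119 to 179 CPM (median 148) and Slc3a1 at 624.8 to 873 CPM (median 687). Both were clear of the cisplatin kidneys, with log2 differences of 1.32 (SE 0.14, edgeR adjusted p = 4.56e-08) and 0.85 (SE 0.12, adjusted p = 4.83e-06). Against vehicle, Slc7a9 remained lower (log2 difference -0.63, adjusted p = 0.00036), and within the mice numbered in the 500s its log2 difference was -0.41 (adjusted p = 0.046), while Slc3a1 overlapped the vehicle range (log2 difference -0.27, adjusted p = 0.063). The call for Slc3a1 against vehicle turned with the samples fitted. With only the groups compared in the fit its adjusted p was 0.023 at the same log2 difference. Its log2 difference was -0.34 without cisplatin plus KW6002 replicate 6 (adjusted p = 0.018), -0.31 without vehicle replicate 2 (adjusted p = 0.047), and -0.27 without cisplatin replicate 1 or 5 (adjusted p = 0.037 and 0.014).

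The count ratio of Slc7a9 to Slc3a1 was 0.209 to 0.350 in vehicle kidneys (median 0.242), 0.141 to 0.167 in cisplatin kidneys (median 0.150) and 0.171 to 0.234 with both drugs (median 0.212). The mean log2 ratio was lower by 0.81 with cisplatin than with vehicle, counted as -0.81 (exact permutation test, two-sided, p = 0.0079, the smallest that 5 against 5 mice can give, adjusted over 6 ratio tests 0.012). Within the 500s this difference was -0.50 (exact permutation p = 0.095, the smallest that 5 against 2 mice can give, adjusted 0.14). The ratio was higher by 0.45 with both drugs than with cisplatin alone (exact permutation p = 0.0043, adjusted 0.012). In KW6002 kidneys it was 0.183 to 0.259, within or just below the vehicle values (log2 difference -0.25, exact permutation p = 0.20). Within the 500s that difference was -0.08 (exact permutation p = 0.60). Slc3a1 shares 601 exon bases with Prepl on the opposite strand.

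**Figure D2:**
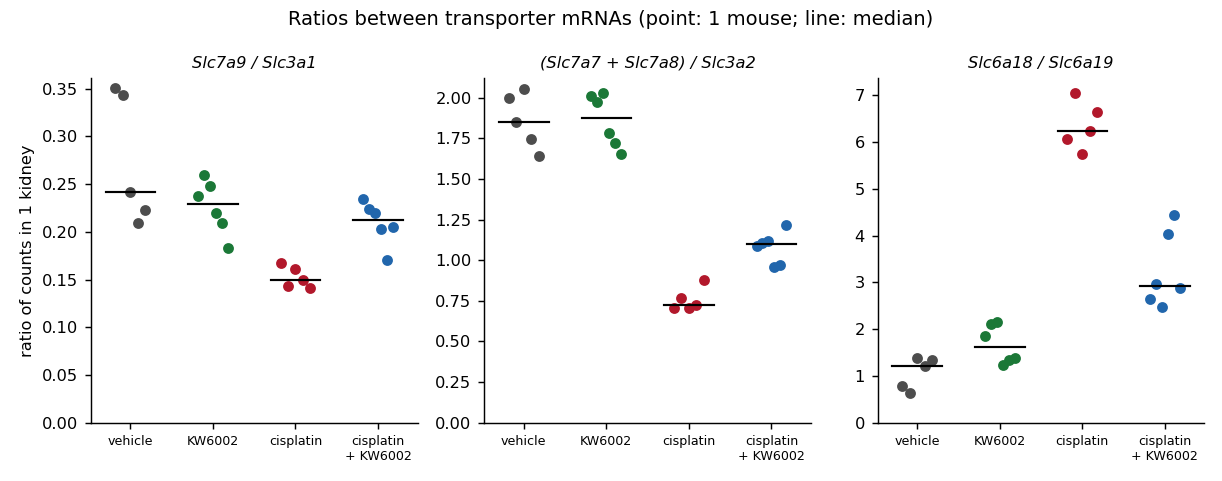
Ratio of read counts between transporter mRNAs in each kidney (linear axis from 0), with each point 1 mouse and the line the group median: light chain over heavy chain of the apical exchanger (left) and of the basolateral exchangers (middle), and Slc6a18 over Slc6a19 (right). Both chain ratios were lowest with cisplatin, with medians of 0.150 and 0.724, and the ratio of Slc6a18 to Slc6a19 was highest there, with a median of 6.23.

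The basolateral light chains differed from each other and from their heavy chain. Slc7a7 (y+LAT1) was at 333, 289, 263, 234 and 211 CPM with vehicle and at 22.1, 25.0, 23.8, 24.2 and 48.7 CPM with cisplatin, 10.8% of the vehicle mean by the fit (log2 change -3.21, SE 0.19, edgeR adjusted p = 6.96e-13). With both drugs it was at 183 to 251 CPM (median 215), with values both below and within the vehicle range. This was a log2 difference of 2.92 from cisplatin alone (SE 0.18, adjusted p = 1.97e-11), above that of 99.5% of the genes tested. From vehicle the log2 difference was -0.29 (adjusted p = 0.13), and within the mice numbered in the 500s -0.04 (adjusted p = 0.90). Without cisplatin replicate 5, the library that stood apart, the first comparison gave -3.48 and the second 3.19, and the remaining difference from vehicle passed the threshold (-0.29, adjusted p = 0.026), as it did with only the groups compared in the fit (-0.30, adjusted p = 0.044). Slc7a7 shares 232 exon bases with Oxa1l on the opposite strand.

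Slc7a8 (LAT2) fell less and stayed there. Its CPM was 324, 254, 250.1, 279 and 264 with vehicle and 179.8, 180.2, 193, 185 and 193 with cisplatin (log2 change -0.56, SE 0.07, edgeR adjusted p = 1.36e-07). With both drugs it was at 168 to 209 CPM (median 188), on either side of the cisplatin values. The log2 difference from cisplatin alone was 0.01 with a 95% interval of -0.12 to 0.13, and from vehicle it was -0.55 (adjusted p = 1.73e-07).

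Slc3a2 (4F2hc), the heavy chain of both, was at 328, 294, 250.1, 294 and 289 CPM with vehicle and at 286, 268, 307, 289 and 274 CPM with cisplatin. These groups overlapped (log2 difference -0.03, 95% interval -0.15 to 0.08, edgeR adjusted p = 0.66), and the sign turned when libraries were scaled by size alone (0.19, adjusted p = 0.0090), a scaling that moved the median of all genes from -0.01 to 0.20. With both drugs all 6 kidneys were above every other kidney, at 364 to 397 CPM (median 371). The log2 difference was 0.40 from cisplatin (SE 0.06, adjusted p = 3.41e-06) and 0.37 from vehicle (adjusted p = 8.21e-06).

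The summed count of Slc7a7 and Slc7a8 over that of Slc3a2 was 1.64 to 2.05 in vehicle kidneys (median 1.85) and 0.705 to 0.881 in cisplatin kidneys (median 0.724). This was a difference of -1.30 in mean log2 ratio (exact permutation test, two-sided, p = 0.0079, adjusted 0.012), and within the 500s it was -1.17 (exact permutation p = 0.095, adjusted 0.14). With both drugs the ratio was 0.960 to 1.22 (median 1.10), higher than with cisplatin alone by 0.51 (exact permutation p = 0.0043, adjusted 0.012) and below every vehicle kidney. In KW6002 kidneys it was 1.66 to 2.03, a log2 difference of 0.005 from vehicle (exact permutation p = 0.97). Within the 500s that difference was 0.023 (exact permutation p = 0.80).

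Slc1a1 (EAAC1), the glutamate and aspartate carrier, was at 341, 357, 385, 388 and 391 CPM with vehicle and at 179.0, 197, 182, 193 and 237 CPM with cisplatin (log2 change -0.91, SE 0.08, edgeR adjusted p = 2.80e-10). With both drugs it was at 263 to 366 CPM (median 318), above every cisplatin kidney (log2 difference 0.67, SE 0.07, adjusted p = 7.96e-08). The highest of these kidneys overlapped the vehicle range, and the log2 difference from vehicle was -0.25 (adjusted p = 0.0051). When libraries were scaled by size alone that difference was -0.09 (adjusted p = 0.24), a scaling that moved the median of all genes in this comparison from -0.002 to 0.16. Slc1a1 shares 2631 exon bases, 31.9% of its exon length, with 4430402I18Rik on the opposite strand.

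The comparison of cisplatin plus KW6002 with cisplatin, in which all mice are numbered in the 500s, found 7 of the 9 transporters higher and none lower, with Slc6a18 and Slc7a8 short of the threshold. Of all genes tested, 28.6% were higher and 27.2% lower. By the stricter rule, Slc7a7 and Slc7a9 were higher, against 4.65% of all genes. Set against vehicle, cisplatin plus KW6002 left 5 of the 9 lower (Slc6a20b, Slc6a19, Slc7a9, Slc7a8 and Slc1a1) and 2 higher (Slc6a18 and Slc3a2), where 29.9% of all genes were lower and 29.8% higher. Both of these comparisons use the same cisplatin plus KW6002 kidneys.

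**Figure D3:**
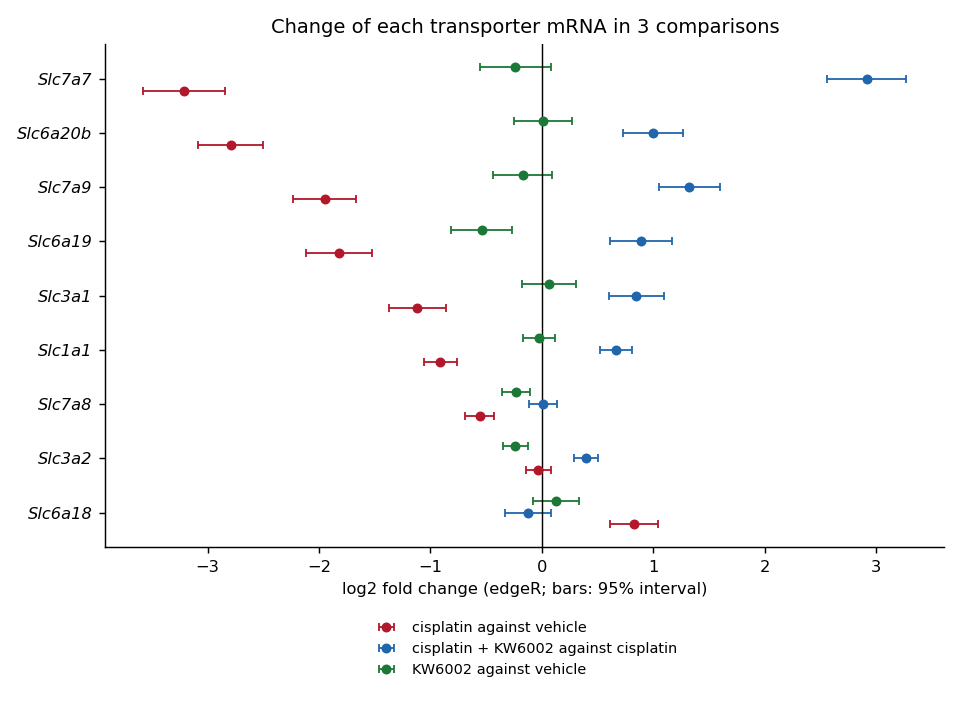
Log2 fold changes from edgeR with 95% intervals (not adjusted for the number of genes) for the 9 transporter mRNAs in 3 comparisons, ordered by the change with cisplatin, with n = 5 mice for vehicle and for cisplatin and n = 6 for KW6002 and for both drugs. Slc7a7 had the widest excursion in each direction (-3.21 and 2.92), Slc6a18 alone was higher with cisplatin, and Slc7a8 and Slc6a18 lay at 0.01 and -0.13 when KW6002 was added. Cisplatin kidneys enter the red and the blue values alike, and vehicle kidneys the red and the green.

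KW6002 alone changed none of the 9 transporters by edgeR, where 0.0175% of all genes tested were higher and 0% lower. At an unadjusted p below 0.05 there were 3 of the 9, all lower: Slc6a19, Slc3a2 and Slc7a8. Of all genes tested, 5.79% were lower by this measure. DESeq2 called 2 of these lower, against 0.291% of the genes for which it gave an adjusted p, Slc6a19 (log2 change -0.53, adjusted p = 0.040) and Slc3a2 (-0.23, adjusted p = 0.019). Slc6a19 was at 389 to 659 CPM (median 462) in the KW6002 kidneys, overlapping vehicle. The values split by label series, with 389 to 418 CPM in the 300s and 505 to 659 in the 500s. Within the 500s the log2 change of Slc6a19 was -0.17 (edgeR adjusted p = 0.77). Slc7a8 was at 213 to 244 CPM, below every vehicle kidney (log2 change -0.23, edgeR adjusted p = 0.20).

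The effect of KW6002 differed with and without cisplatin for 8 of the 9 transporters, more positive with cisplatin in each (interaction term of edgeR, adjusted p below 0.05), where 22.8% of all genes tested were more positive and 19.9% more negative. The log2 difference between the effects was 3.15 for Slc7a7 (adjusted p = 1.82e-09), 1.497 for Slc7a9 and 1.43 for Slc6a19. It was 0.24 for Slc7a8 (adjusted p = 0.040). That call was lost with other scalings (adjusted p = 0.051 and 0.15), with no filter on low counts (0.056), within the 500s (0.098) and when any 1 of 11 libraries was left out (vehicle replicates 1 and 4, KW6002 1, 3 and 5, cisplatin 1, 2 and 4, and both drugs 1, 3 and 6, adjusted p = 0.053 to 0.090). For Slc6a18 it was -0.26 (adjusted p = 0.18), and -0.0019 within the 500s.

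Per kilobase of exon, the order of the transporters changed with cisplatin. Length was that of the merged exons of all annotated transcripts, and the order within a group depends on this choice. Slc3a1 has 2271 such bases from 1 transcript and Slc6a18 4418 from 10. In vehicle kidneys Slc3a1 was highest at 372 ± 40.5 CPM per kb (SD, n = 5), followed by Slc6a18 (164 ± 27.5) and Slc6a19 (143 ± 28.7), whose ranges overlapped. Slc7a9, Slc3a2 and Slc7a7 came next at 84.6, 82.5 and 80.2 CPM per kb and were not separated by their spread. Slc7a8 (54.8), Slc1a1 (45.1) and Slc6a20b (36.2) were lowest. In cisplatin kidneys Slc6a18 came first at 291 ± 41.7 CPM per kb, in all 5 kidneys ahead of Slc3a1 (172 ± 46.3). Slc3a2 came next (80.8 ± 4.29), then Slc6a19 (40.4), and Slc7a7 (8.68) and Slc6a20b (5.23) were last with overlapping ranges. With both drugs Slc3a1 (309 ± 39.1) and Slc6a18 (266 ± 29.8) overlapped at the top, and Slc7a7, at 65.4 ± 8.75 CPM per kb, overlapped Slc6a19 and Slc7a9.

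Across the 22 libraries, which share treatment groups, the genes with the most similar log2 CPM were sought for each transporter by Pearson's r. Among themselves, Slc3a1 and Slc1a1 (r = 0.97) and Slc7a7 and Slc7a9 (r = 0.96) were closest, and after subtraction of the group means these values were 0.75 and 0.87. Slc6a18 had r = -0.82 with its neighbour Slc6a19, and -0.34 after subtraction of the group means. Among all other genes tested, the nearest to Slc7a9 was Ass1, the argininosuccinate synthase of arginine synthesis (r = 0.99), and the nearest to Slc3a1 was Pipox, which oxidises pipecolic acid and sarcosine (r = 0.98). Macrod2 was nearest to Slc6a20b (r = 1.00), Wwp2, a ubiquitin ligase, to Slc7a7 (0.99), Fuca2, a fucosidase, to Slc1a1 (0.99) and Slc30a5, a zinc transporter, to Slc6a19 (0.96). Tmem19 was nearest to Slc6a18 (r = 0.94), Iffo1 to Slc7a8 (0.94) and L3mbtl2 to Slc3a2 (0.89). After subtraction of the group means, r with these nearest genes ran from 0.34 (L3mbtl2) to 0.92 (Macrod2). As the groups set most of the variance, these values are descriptions over 22 libraries and not tests.

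B0AT1 and B0AT3 need a partner protein to reach the brush border: collectrin (Cltrn) is the main one in kidney, and aminopeptidase N (Anpep) is another known partner. Cltrn was at 1334 to 1593 CPM with vehicle and 105 to 233 CPM with cisplatin (log2 change -3.22, SE 0.15, edgeR adjusted p = 1.94e-14), and at 549 to 893 CPM with both drugs (log2 difference from cisplatin 2.23, adjusted p = 3.20e-11). Anpep had 178 to 220.1 CPM with vehicle and 179.2 to 227 with cisplatin, and was lower with both drugs than with cisplatin (log2 difference -0.55, adjusted p = 1.87e-05).

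Of 28 other amino acid transporter genes, 27 were tested, and 11 rose and 11 fell with cisplatin, with a median log2 change of -0.10. Of all genes tested, 34.6% rose and 35.9% fell. The deepest losses were of Slc7a13 and Slc7a12. Slc7a13 (AGT1), the second light chain of rBAT in the late proximal tubule, was at 666 to 1002 CPM with vehicle and 3.43 to 8.15 CPM with cisplatin (log2 change -7.08, SE 0.33, edgeR adjusted p = 1.70e-14). With both drugs it was at 22.8 to 86.6 CPM, above cisplatin (log2 difference 2.97, adjusted p = 8.54e-09) and far below vehicle (-4.11, adjusted p = 1.52e-11). Slc7a12 fell by 4.67 on the log2 scale from a vehicle range of 23.4 to 91.7 CPM. Slc36a1 (PAT1), Slc16a10 (TAT1, the basolateral aromatic amino acid carrier), Slc6a15 and Slc38a4 followed with log2 changes of -1.75, -1.58, -1.36 and -1.11.

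The genes that rose most included 3 further light chains of 4F2hc. Slc7a11 (xCT, the cystine and glutamate exchanger) went from 0.437 to 0.842 CPM with vehicle to 4.09 to 16.2 CPM with cisplatin (log2 change 3.64, SE 0.36, edgeR adjusted p = 6.32e-09) and was at 0.716 to 1.82 CPM with both drugs. Slc7a5 (LAT1) and Slc7a6 (y+LAT2) rose by log2 changes of 1.32 and 1.15. Slc38a3 (SNAT3, the glutamine carrier of the basolateral membrane) rose from 52.4 to 80.4 CPM to 322 to 428 CPM (log2 change 2.501, adjusted p = 2.02e-12), and Slc7a1 (CAT1) and Slc43a1 (LAT3) by 1.13 and 1.10. With cisplatin plus KW6002 against cisplatin, 9 of the 27 were higher and 8 lower (median 0.07), Slc7a11 falling by 2.71 on the log2 scale. Of all genes tested, 28.6% were higher and 27.2% lower in that comparison.

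**Figure D4:**
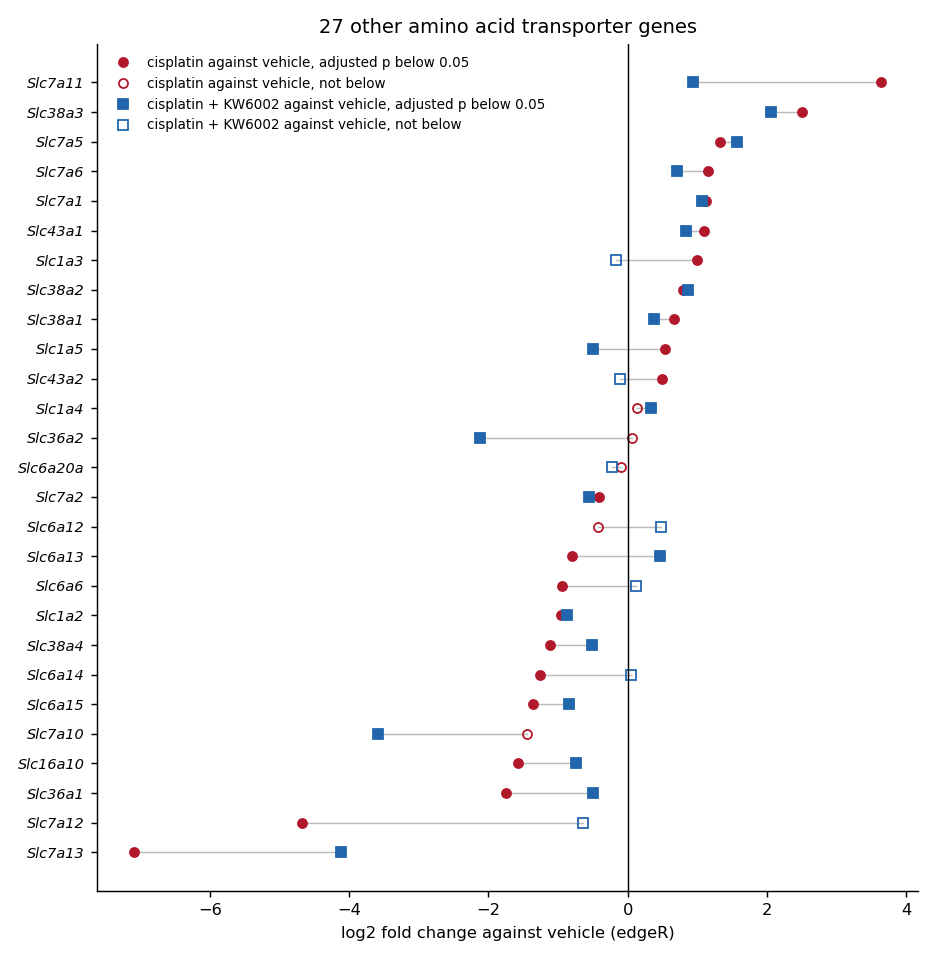
Log2 fold changes against vehicle (edgeR) of the 27 other amino acid transporter genes tested, ordered by the change with cisplatin (red circles, n = 5) and joined to the change with cisplatin plus KW6002 (blue squares, n = 6). Filled symbols have an adjusted p below 0.05, and both sets share the vehicle kidneys. Changes ran from -7.08 (Slc7a13) to 3.64 (Slc7a11), and Slc38a3 and Slc7a5 remained at 2.06 and 1.57 with both drugs.

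Genes of the amino acid shortage response, a set driven by ATF4, were higher in 8 of 9 cases with cisplatin (median log2 change 0.85). Whether amino acids were short in these kidneys was not tested. Among the higher genes were Chac1 (a glutathione-degrading enzyme, 2.39), Psat1 (serine synthesis, 1.70), Trib3 (1.30), Ddit3 (CHOP, 1.03), Sesn2 (0.85) and Asns (asparagine synthetase, 0.82). With both drugs all 9 were above vehicle, and against cisplatin alone 3 were higher and 3 lower. Of all genes tested, 34.6% were higher with cisplatin and 29.8% with both drugs, each against vehicle. Against cisplatin alone, 28.6% of all genes were higher with both drugs and 27.2% lower. Asns was at 3.25 to 7.01 CPM with vehicle, 6.09 to 9.22 with cisplatin and 14.6 to 25.3 with both drugs (log2 difference from cisplatin 1.29, edgeR adjusted p = 6.12e-06). It was the highest of the 9 in that comparison, where their log2 differences ran from -1.05 to 1.29 with a median of 0.19.

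Other genes of the proximal tubule moved alongside the transporters. All 12 markers tested (such as Lrp2, Slc34a1 and Hnf4a) were lower with cisplatin, and 10 of 12 were higher with both drugs than with cisplatin alone. Their summed level was 28821 to 30938 CPM with vehicle, 6528 to 9911 with cisplatin and 13533 to 18154 with both drugs. The 4 fibroblast markers rose with cisplatin, from a summed 155 to 282 CPM to 567 to 723 CPM, and the sum of 4 podocyte markers, of which 3 were lower and 1 higher, was 467 to 572 CPM with vehicle and 464 to 507 with cisplatin. Summed markers of the thick ascending limb (4720 to 7825 CPM with vehicle and 2035 to 2366 with cisplatin) and of the distal convoluted tubule (1589 to 1653 CPM and 45.6 to 90.7) were lower as well, with all 4 and all 3 genes called. Of 4 intercalated cell markers 2 were lower (summed 252 to 299.6 CPM with vehicle and 129 to 179.0 with cisplatin), of 4 endothelial and of 4 collecting duct principal cell markers 1 was higher and 1 lower, and of 4 macrophage markers 1 was higher and 2 lower. Of T cell markers 3 of 4 and of B cell markers all 3 were lower with cisplatin, and none of 4 fat markers passed the threshold. The lymphocyte markers were near the floor of the counts. T cell markers summed to 2.48 to 5.63 CPM with vehicle and 0.932 to 1.67 with cisplatin, and B cell markers to 0.704 to 2.17 and 0.0533 to 0.538. The rise with both drugs against cisplatin alone was not particular to the proximal tubule. Higher there were also 3 of 4 thick ascending limb, 2 of 3 distal convoluted tubule and 3 of 4 intercalated cell markers. Lower were 3 of 4 fibroblast and 3 of 4 fat markers. Of all genes tested, 35.9% were lower and 34.6% higher with cisplatin, and 28.6% were higher and 27.2% lower with both drugs against cisplatin. The part of these shifts in the transporter values was not tested.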

How the data were processed

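Poly(A) RNA of 22 whole mouse kidneys was sequenced as single-end 50 base reads from stranded libraries. Per the labels and the study's methods, the authors aligned reads to mm10 with STAR 2.5.3a, kept unique alignments and deposited raw counts per gene from HTSeq 0.6.1p1 with Ensembl releases 90 and 102. The strand setting is not given in the sources used here. The table also holds 66 unnamed columns without values, which were not used. Genes were named through the GENCODE M21 annotation (32824 of 32858 identifiers; those unnamed held 0.0046% of counts).

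Counts were tested with edgeR 4.0.16 (R 4.3.3): TMM scaling, removal of low counts (17131 genes kept), a quasi-likelihood fit of all 22 libraries with 1 mean per group, and Benjamini-Hochberg adjustment over all genes tested. CPM values use the TMM-scaled library sizes. The authors' test was DESeq2, and its version 1.42.0 was an alternative here. Ratios of counts were compared by exact permutation of mice with scipy 1.17.1. On simulated counts of the 17131 genes, with 200 changed between cisplatin and vehicle, 200 were recovered with 13 others called. The simulation gave all genes the same spread, had no label series and changed far fewer genes than cisplatin did. It checked the code and does not give the error rates in these data. Total counts were 26471762 to 40510754 per library. Groups came from the agent named in the labels, 1 mouse per library, so p-values measure the spread between mice. All transporters were described in every comparison. Of the other lists, partner genes were named except for an item that is not reported here, and up to 6 genes in each direction with the largest change with cisplatin at an adjusted p below 0.05 and a mean log2 CPM of at least 1. The transporters, lists and tests were chosen with earlier results of these data known. Other tools, scalings, filters, thresholds and subsets of mice were tried.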

Additional observations from a re-analysis of the deposited data

Results flagged for a closer look

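A library stood apart from the rest of its group in 3 of 36 cases (9 transporters in 4 groups), by a gap test that flags about 1 group in 20 by chance. In the cisplatin group this was replicate 5 for Slc7a7, at 48.7 CPM with the next kidney at 25.0, and for Slc6a19, at 233 CPM with the next at 199. In the cisplatin plus KW6002 group it was replicate 6 for Slc3a1, at 873 CPM with the next at 699. Cisplatin replicate 5 was the highest of its group for 8 of the 9 transporters and also had the lowest Lcn2 of its group, 539 CPM against a median of 1390.

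The effect of KW6002 differed between cisplatin-treated and other mice by the interaction term of edgeR for 8 transporters. The log2 difference between the effects was 3.15 for Slc7a7, 1.497 for Slc7a9, 1.43 for Slc6a19, 0.98 for Slc6a20b, 0.79 for Slc3a1, 0.69 for Slc1a1, 0.63 for Slc3a2 and 0.24 for Slc7a8. Each was positive, so the effect of KW6002 was more positive where cisplatin was given.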

How the results depend on the processing

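Of 1476 recomputed log2 changes of the transporters, 1392 kept their direction and their side of the threshold, 68 crossed the threshold, 15 uncalled values changed sign, and 1 turned to a call of opposite sign (Slc3a2 with cisplatin, 0.19 when libraries were scaled by size alone). By an adjusted p below 0.01 with a log2 change beyond 1, the transporters called numbered 5 for cisplatin against vehicle, 2 for both drugs against cisplatin, 1 for both drugs against vehicle and 3 for the interaction; by a test against a log2 change of 1 they numbered 4, 1, 1 and 1. DESeq2 called 2 with KW6002 alone. Leaving out 1 library at a time gave 8 called throughout for cisplatin against vehicle, 7 for both drugs against cisplatin, 0 to 1 for KW6002 alone (the 1 was Slc3a2, without vehicle replicate 3), 7 to 9 for both drugs against vehicle and 7 to 8 for the interaction. The log2 ratio of Slc7a9 to Slc3a1 then ranged from -0.90 to -0.71, from 0.42 to 0.51 and from -0.34 to -0.15 in the comparisons of cisplatin, of both drugs and of KW6002 alone, and that of the basolateral chains from -1.35 to -1.26, from 0.47 to 0.57 and from -0.038 to 0.042. Among the mice numbered in the 500s, the cisplatin differences were -0.50 and -1.17, at an adjusted p of 0.14 that 2 vehicle mice cannot bring lower. Mice were not treated as paired by replicate number. Over 31 same-numbered pairs, correlations of deviations ran from -0.175 to 0.405 (median 0.008, with 7 over 0.1), which cannot exclude a pairing. With a replicate block the transporters called numbered 8, 7, 0, 7 and 8 in the 5 comparisons. The cause of these shifts was not tested. With 5 or 6 mice in a group and label series uneven between treatments, an influence of the series on the comparisons with vehicle is only partly covered by the 500s alone, since these hold 2 vehicle mice.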
